A study of Drosophila melanogaster with 6 samples.

Results

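Decapentaplegic (Dpp) is the fly's counterpart of the vertebrate bone morphogenetic proteins, a secreted signal that patterns the imaginal discs, the larval epithelia from which adult appendages form. The signal passes through paired receptor kinases to Mad, a Smad transcription factor that enters the nucleus with Medea and acts largely by silencing the repressor gene brk. In the eye disc, Dpp from the posterior margin helps to start the morphogenetic furrow, the moving front of photoreceptor differentiation, and dpp is then transcribed in the furrow under Hedgehog control. The genes described here are 10 members of this pathway, taken by name: the ligand genes dpp and gbb, the receptor genes tkv, sax and put, the Smad genes Mad, Med and Dad, and the nuclear factor genes brk and shn. Of these, 9 had probe sets that the array annotation pairs with the gene alone, 11 probe sets in all, out of 18769 probe sets and 11982 named genes on the array. No probe set was paired with brk in the annotation used, so brk was not analysed here, and 1 further probe set that lists shn together with another gene was not used.

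RNA was measured from eye-antennal discs of wandering larvae in the third instar, grown at 25 °C, of the w1118 strain of Drosophila melanogaster, with 3 biological replicates for each of 2 genotypes. The tumour genotype was ey-Gal4 GS(2)88A8 UAS-Dl/+: the ey-Gal4 driver turns on Gal4 in the developing eye, UAS-Dl is a Gal4-dependent transgene of the Notch ligand Delta, and GS(2)88A8 is an insertion that, in the published work on this combination, puts lola and psq under Gal4. The control genotype was GS(2)88A8 UAS-Dl/+, so both genotypes carried the insertion and the transgene and differed by the driver. There was no genotype with the driver alone, so what the driver does and what its target genes do cannot be told apart. Each array held RNA from a pool of discs, with the number of disc pairs written in a way that reads as 300. The antennal part was in every pool beside the eye part, and where in the disc the driver acted was not measured.

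A log2 intensity of 4 was reached by 7864 to 8004 probe sets per array. Both replicate 1 arrays lay far from the remaining 4 along the leading principal component, which held 67.1% of the variance, while the next component, with 23.3%, separated the genotypes. The ribosomal RNA control probe sets averaged 10.33 and 12.48 log2 on the replicate 1 arrays and between 5.50 and 7.19 on the others. Eye markers fixed as a list (ey, toy, so, eya, ato and elav) were all measured, with summed linear intensities of 22070 to 24020 in tumour and 13350 to 16760 in control. Antennal markers (Dll, ss, dan, danr and al) were also all measured, at 4886 to 6495 in tumour and 4609 to 6006 in control, so the labelled tissue showed both of its parts. The antennal markers did not move together. In log2, tumour minus control was -0.61 in Dll (brightest probe set), -0.51 in ss and -0.29 in al, but 0.40 in dan and 0.22 in danr. The 7 haemocyte markers summed to 1161 to 1816 in tumour and 2456 to 3476 in control, and the 3 measured muscle and myoblast markers to 2130 to 2345 and 3509 to 3841. Among the haemocyte markers PPO1 and PPO2 differed most, at -1.32 and -1.06 log2. Hml, Pxn, srp and eater lay between -0.59 and -0.26, and NimC1 was at 0.037. The part of these shifts in the results below was not tested.

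A probe set was tested where at least 3 of the 6 arrays, whatever their genotype, reached a log2 intensity of 4. That held for 8 of the 11 probe sets and for 8 of the 9 measured genes, each through a single probe set. Med, the co-Smad gene, read 3.50 on every one of the 6 arrays, and the second probe sets of tkv and shn lay at 2.17, the floor of the scale, on every array. These 3 probe sets hold no information on a genotype difference, and for Med no other probe set was available. Tumour and control were compared with limma over all 7962 tested probe sets, with Benjamini-Hochberg adjustment over all of them, without a covariate; this is the unpaired fit. A paired fit, in which replicate numbers entered as blocks, is given beside it. Samples of the same number deviated together, but samples of different numbers were not compared. Whether replicates 2 and 3 match by number was therefore not tested. In bulk RNA, fewer cells that express a gene and less RNA per cell cannot be told apart, and the arrays measured transcripts, not phosphorylated Mad.

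No Dpp pathway gene was called different between tumour and control discs. The unpaired fit called 0 of 8 tested members at an adjusted p of 0.05, where 0.512% of all 6447 tested genes were called, and at an unadjusted p of 0.05 it again counted 0 members, against 8.73% of all genes. The paired fit also called 0 of 8, where 9.45% of all genes were called. Replicates 2 and 3 alone called 0, where 7.17% were called. At an unadjusted p of 0.05 both of these fits counted tkv and sax. The share of all genes at that cut was not counted for these fits, so that count has no background to be read against. The differences were small: they ran from -0.018 in put to 0.28 in dpp on the log2 scale, with a median of 0.13 against 0.052 over all tested genes. In absolute size the median was 0.13 for the members and 0.14 for all tested genes. Tumour was above control in 7 of 8 members, where 61.5% of all genes were above 0.

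**Figure D1:**
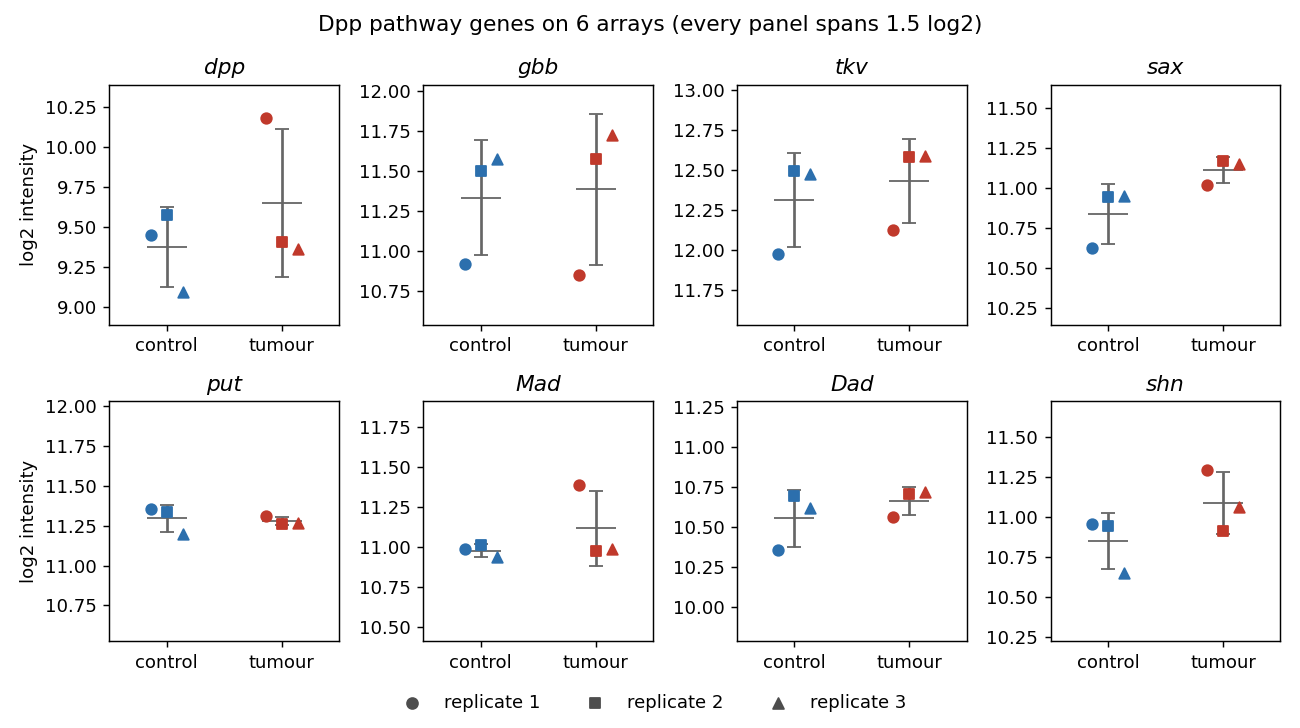
Log2 intensity (vertical axes, each spanning 1.5 log2) of the 8 tested Dpp pathway genes in control (blue) and tumour (red) discs. Symbols mark replicates 1 to 3, and grey bars give the mean ± SD of 3 arrays. The genotypes separate in sax alone, and the replicate 1 arrays (circles) are the lowest of their genotype in gbb, tkv, sax and Dad.

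The ligand gene dpp had the widest spread of the members. Its log2 intensities were 10.18, 9.41 and 9.36 on tumour arrays 1, 2 and 3 and 9.45, 9.58 and 9.10 on control arrays 1, 2 and 3. Tumour replicate 1 was the highest array, and the other tumour arrays lay within the control range. Tumour averaged 9.65 ± 0.46 and control 9.38 ± 0.25 (SD, n = 3), which differ by 0.28 with a 95% confidence interval from -0.36 to 0.91 (limma, adjusted p = 0.96 unpaired, 0.34 paired). As folds, that interval runs from 0.781 to 1.88. The same-number pairs differed in sign, at 0.73, -0.17 and 0.27. Without tumour replicate 1 the difference was 0.010, and with replicates 2 and 3 alone 0.049. Over the 6 arrays dpp ranged by 1.09 log2, a wider range than that of 79.6% of tested genes.

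The second ligand gene, gbb (glass bottom boat), encodes a broadly expressed bone morphogenetic protein that can act together with Dpp. It read 10.85, 11.58 and 11.73 on the tumour arrays and 10.92, 11.50 and 11.57 on the control arrays, each in the order of replicates 1 to 3. Here both replicate 1 arrays were low, and the remaining 4 arrays lay between 11.50 and 11.73. The difference between genotypes was 0.052 (95% confidence interval -0.64 to 0.75, limma, adjusted p = 1 unpaired). With the replicate block the interval narrowed to between -0.10 and 0.21, which is 0.933- to 1.15-fold (adjusted p = 0.58). The sign turned without control replicate 1, tumour replicate 2 or tumour replicate 3, at -0.15, -0.044 and -0.12.

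Among the receptors, sax came nearest to a call. Saxophone is a type I receptor kinase that binds Gbb and works beside Thickveins. Its probe set read 11.02, 11.17 and 11.15 on tumour arrays 1 to 3 and 10.62, 10.94 and 10.95 on control arrays 1 to 3. The lowest tumour value lay above the highest control value, a separation that 8.72% of tested genes also showed in this direction. Tumour averaged 11.11 ± 0.082 and control 10.84 ± 0.19 (SD, n = 3), a 1.21-fold difference of 0.27 log2. The interval ran from -0.011 to 0.56 in the unpaired fit (limma, adjusted p = 0.62) and from 0.12 to 0.43 in the paired fit (adjusted p = 0.056). The gene therefore missed the threshold of 0.05 in both. Its 3 pairs were at 0.40, 0.22 and 0.20, and leaving out any single array kept the difference between 0.17, without control replicate 1, and 0.33. Of all tested genes, 76.6% had a smaller absolute difference.

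Thickveins, the main type I receptor of Dpp, is encoded by tkv, whose level is known to limit how far Dpp spreads in the wing disc. The tkv probe set read 12.13, 12.58 and 12.59 on the tumour arrays and 11.98, 12.49 and 12.48 on the control arrays. Each tumour array was above the control array of its number, by 0.15, 0.088 and 0.11, but the genotypes overlapped because both replicate 1 arrays were low. The difference of 0.12 had an interval from -0.36 to 0.60 in the unpaired fit and from 0.015 to 0.22 in the paired fit (limma, adjusted p = 1 and 0.13). In folds the paired interval was 1.01 to 1.16. Without control replicate 1 the sign turned, to -0.053.

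The type II receptor gene put (punt), which encodes the kinase that activates both type I receptors, was the most even member. It read 11.31, 11.26 and 11.26 in tumour and 11.35, 11.34 and 11.20 in control. The whole range over 6 arrays was 0.15 log2, and only 2.54% of tested genes had a smaller one. The difference was -0.018, with an interval from -0.21 to 0.17, or 0.865- to 1.13-fold (limma, adjusted p = 1 unpaired, 0.83 paired). Among the members this is the tightest bound of the unpaired fit.

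The balance between the type I receptors was compared within each array, which removes any array-wide scaling. Log2 tkv minus log2 sax was 1.11, 1.41 and 1.44 in tumour and 1.36, 1.55 and 1.53 in control. The control arrays were higher than the tumour array of the same number in each pair, and the genotypes overlapped. The difference of means was -0.16 (two-sided exact permutation p = 0.3, where the smallest p with 3 against 3 is 0.1). Without tumour replicate 1 it was -0.052, less than that by more than 1.5 times.

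**Figure D2:**
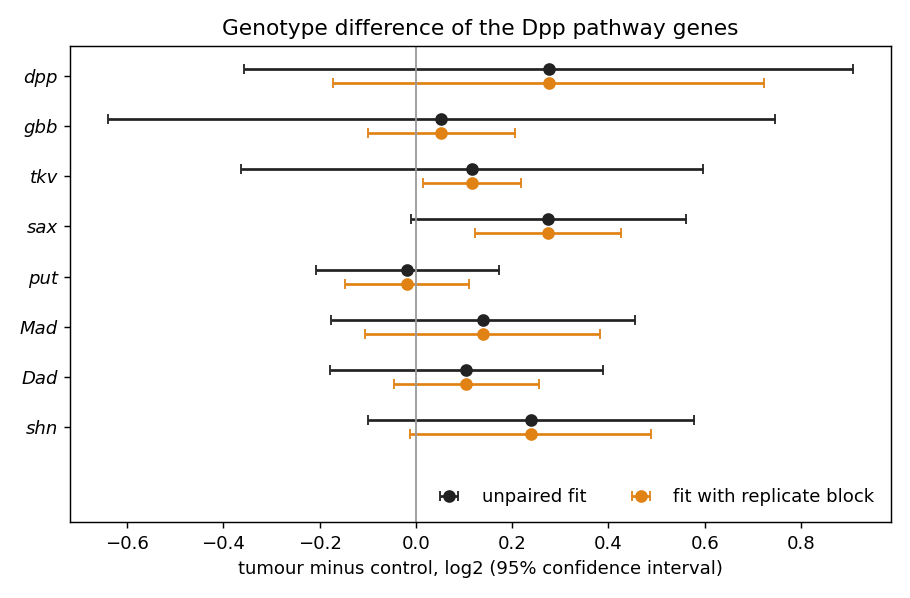
Tumour minus control (horizontal axis, log2) for the 8 tested genes with 95% confidence intervals of limma, unpaired in black and with the replicate block in orange. Every black interval spans 0, and the orange intervals of tkv and sax lie above 0 although neither gene passed after adjustment over all probe sets.

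The signal transducer Mad read 11.38, 10.97 and 10.99 in tumour and 10.99, 11.01 and 10.93 in control. As with dpp, tumour replicate 1 was the highest array. For Mad, unlike dpp, the other 5 arrays were nearly level, from 10.93 to 11.01. The difference was 0.14 (interval -0.18 to 0.45, limma, adjusted p = 0.96 unpaired, 0.37 paired). Without tumour replicate 1 it was 0.0042, and with replicates 2 and 3 alone 0.0092.

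Dad (Daughters against dpp) encodes an inhibitory Smad that is transcribed in response to Dpp signalling and dampens it, which makes its transcript a common readout of the pathway. The arrays read 10.56, 10.70 and 10.72 in tumour and 10.35, 10.69 and 10.62 in control. Tumour was higher in each same-number pair, by 0.21, 0.013 and 0.095, a pattern shared by 35.7% of all tested genes, and the genotypes overlapped. The means were 10.66 ± 0.087 and 10.56 ± 0.18 (SD, n = 3). The difference of 0.10 had an interval from -0.18 to 0.39, that is 0.883- to 1.31-fold, unpaired, and from -0.047 to 0.26, or 0.968- to 1.19-fold, paired (limma, adjusted p = 0.98 and 0.29). A rise in Dad beyond 1.31-fold lay outside both intervals. Without control replicate 1, the lowest array, the difference was 0.0039.

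The comparison of Dad with brk planned within each array could not be made without a brk probe set. In its place, chosen after the data were seen, log2 Dad minus log2 dpp was 0.38, 1.30 and 1.35 in tumour and 0.90, 1.12 and 1.52 in control. Tumour replicate 1, where dpp was high, was the lowest, and the rest overlapped. The difference of means was -0.17 (two-sided exact permutation p = 0.8, smallest possible 0.1).

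Schnurri, encoded by shn, is a zinc finger protein that joins Mad and Medea on the silencers of brk. The shn probe set read 11.30, 10.91 and 11.06 in tumour and 10.96, 10.94 and 10.65 in control. The genotypes overlapped, since tumour replicate 2 lay below control replicates 1 and 2. The difference was 0.24 (interval -0.10 to 0.58 unpaired and -0.011 to 0.49 paired, limma, adjusted p = 0.83 and 0.18). Pairs 1 and 3 were at 0.34 and 0.41 and pair 2 at -0.030, and without tumour replicate 1 the difference was 0.14, as it was without control replicate 3.

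The replicate 1 arrays differed from the others by more than the genotypes did in several members. Replicate 1 minus the mean of replicates 2 and 3 had the same sign in both genotypes for all 8 members, as it had for 87.2% of all tested genes. In gbb it was -0.80 in tumour and -0.62 in control, and in tkv -0.46 and -0.51. For sax the offsets were -0.14 and -0.32, and for Dad -0.15 and -0.30. The opposite direction was seen in dpp, at 0.80 and 0.12, in shn, at 0.31 and 0.16, in Mad, at 0.40 and 0.015, and in put, at 0.045 and 0.084. In 4 members, gbb, tkv, put and Dad, both offsets were larger than the genotype difference, which also held for 63.9% of all tested genes. The median absolute offset over members was 0.36 in tumour and 0.23 in control, against 0.35 and 0.37 over all tested genes.

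**Figure D3:**
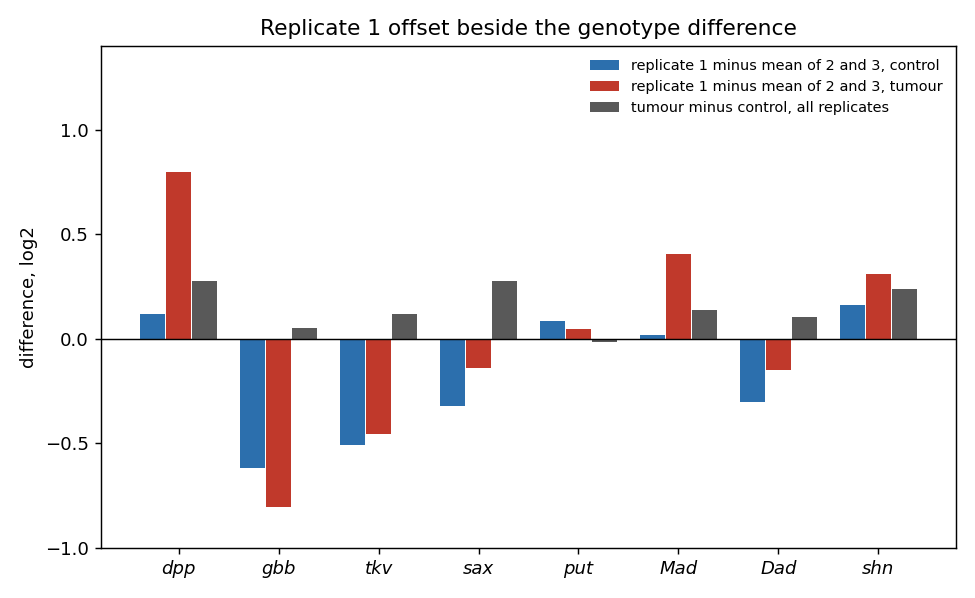
Offset of the replicate 1 array from the mean of replicates 2 and 3 in control (blue) and tumour (red), beside the tumour minus control difference over all replicates (grey), in log2 for each tested gene. The offsets of gbb and tkv reach -0.80 and -0.51 and exceed their genotype differences, and the dpp and Mad offsets are large in tumour and small in control.

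Profiles over the 6 arrays were compared as root mean square distances after each gene was centred on its own mean. The tested genes nearest to dpp were Karl (0.075), pigs (0.079) and upSET (0.097), where the median distance over all genes was 0.47. Nearest to Dad were CG9986 (0.015), yps (0.015) and Mtch (0.016), with a median of 0.18. The dpp profile departed most from its mean on tumour replicate 1, and in Dad both replicate 1 arrays were the lowest of their genotype. Nearness therefore reflects likeness over arrays and not over conditions.

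The rest of the pathway was described through 53 further genes in 5 lists, of which 48 had a probe set and 42 were tested. The unpaired limma fit called 0 of the 42, where 0.512% of all tested genes were called. At an unadjusted p under 0.05 that fit counted 7, where 8.73% of all tested genes were counted. The paired fit called 7 higher and 2 lower, where 4.06% and 5.38% of all tested genes were called higher and lower. The median difference was 0.12, against 0.052 over all genes. All adjusted p-values in the following paragraphs are from limma, and rises and falls are those of the paired fit.

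Of 8 other ligand, receptor and Smad genes, 6 were tested and the paired fit called 1, where it called 9.45% of all tested genes. Actbeta, an Activin-type ligand gene of the pathway branch that signals through Baboon and Smox, read 6.89, 7.12 and 7.52 in tumour and 5.47, 6.45 and 6.35 in control. The genotypes did not overlap, as in 8.72% of all tested genes with tumour higher. The 2.12-fold rise (1.09 ± 0.17 log2, SE of the paired fit) was the largest difference among the tested members and list genes. The unpaired fit gave it an adjusted p of 0.35, the paired fit 0.027, and replicates 2 and 3 alone 0.044. Its type I receptor gene babo was at 0.17 (adjusted p = 0.13 paired), its Smad gene Smox at -0.16 (0.80), and wit, a type II receptor gene, at 0.16 (0.33). The ligand genes scw and daw stayed below a log2 of 4 on every array.

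Of 15 extracellular modulators, 10 were tested, 1 of them called higher and 1 lower by the paired fit, around a median of -0.057. Of all tested genes, that fit called 4.06% higher and 5.38% lower. The gene tok (tolkin) encodes a metalloprotease of the Tolloid family, whose members cut ligand antagonists. It rose 1.32-fold (0.40 ± 0.046 log2, SE of the paired fit), with an adjusted p of 0.86 in the unpaired fit, 0.014 in the paired fit and 0.016 when replicate 1 was left out of both genotypes. The glypican gene dlp, whose product carries ligands at the cell surface, fell by 0.28 log2 (adjusted p = 0.84 unpaired, 0.047 paired, 0.088 when replicate 1 was left out of both genotypes). The collagen gene vkg, whose product binds Dpp in the matrix, was at -0.36 (adjusted p = 0.80 unpaired, 0.16 paired). The part of the lower haemocyte marker sum, given above, in the vkg difference was not tested. For the feedback antagonist gene magu (pentagone) the difference was 0.20 (adjusted p = 0.23 paired).

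Neither limma fit called any of the 8 tested intracellular modulators, whose median difference was 0.14. Of all tested genes, the unpaired fit called 0.512% and the paired fit 9.45%. At an unadjusted p under 0.05 the unpaired fit counted 1 modulator, where 8.73% of all tested genes were counted. Nearest was sbb, known as a repressor of tkv in the wing disc. Its brightest probe set was at 0.35 without overlap between genotypes (adjusted p = 0.28 unpaired, 0.054 paired). Another tested sbb probe set was at 0.078, and there the genotypes overlapped (adjusted p = 0.56 paired). Smurf, the gene of a ubiquitin ligase that removes activated Mad, was at 0.22, again without overlap (adjusted p = 0.71 and 0.094). These 2 were the intracellular modulators without overlap in the brightest tested probe set, a separation that 8.72% of all tested genes showed with tumour higher.

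Target genes held most of the calls: the paired fit called 4 of 14 higher and 1 lower, around a median of 0.17. Of all tested genes it called 4.06% higher and 5.38% lower, and the list was chosen with earlier results of these data known. Those called higher are eye genes that Dpp helps to turn on ahead of or in the furrow. Not every eye gene of the list was called: ato was at 0.17, with overlap between genotypes (adjusted p = 0.16 paired). The retinal determination genes dac, so and eya rose by 0.69, 0.64 and 0.49 (adjusted p = 0.0075, 0.0073 and 0.037), and hairy, listed as hry, rose by 0.33 (adjusted p = 0.014). In the unpaired fit these 4 had adjusted p-values of 0.16, 0.45, 0.18 and 0.77, and hairy was not called with replicates 2 and 3 alone (adjusted p = 0.19). Both so and eya also stand in the eye marker list, whose summed intensity was higher on every tumour array than on any control array. The part of that shift, or of Dpp signalling, in these rises was not tested. In the other direction tup, a LIM-homeodomain gene, fell by 0.66 (adjusted p = 0.17 unpaired, 0.028 paired), from 8.03, 8.18 and 8.12 in control to 7.51, 7.33 and 7.53 in tumour.

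The targets best known from other discs were not called. The T-box gene bi (optomotor-blind) was at 0.036, salm at 0.075 and salr at 0.19 (adjusted p = 0.82, 0.38 and 0.34 paired). For pnr, a GATA factor gene of the dorsal head margin, the difference was -0.39 (adjusted p = 0.057 paired), and Doc1, Doc2 and Doc3 were at 0.089, -0.063 and 0.17. Both probe sets of vg, a wing gene, read 2.31 or less on every array.

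The Hedgehog genes that act upstream of dpp in the furrow were measured as well. The transcription factor gene ci rose by 0.34 (adjusted p = 0.21 unpaired, 0.031 paired), without overlap between genotypes. The ligand gene hh read 9.30, 9.37 and 9.43 in tumour and 9.56, 9.66 and 9.54 in control, without overlap, a difference of -0.22 (adjusted p = 0.66 unpaired, 0.12 paired). The receptor gene ptc, itself induced by Hedgehog, was at 0.019, with overlap (adjusted p = 0.89 paired). For smo the difference was 0.22, with tumour higher and again without overlap (adjusted p = 0.12 paired). The comparison thus had 1 call among 4 tested genes, where the paired fit called 9.45% of all tested genes. Of all 6447 tested genes, 8.72% were without overlap with tumour higher, and 464 genes with tumour lower. No probe set was paired with wg, which was also in this list.

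**Figure D4:**
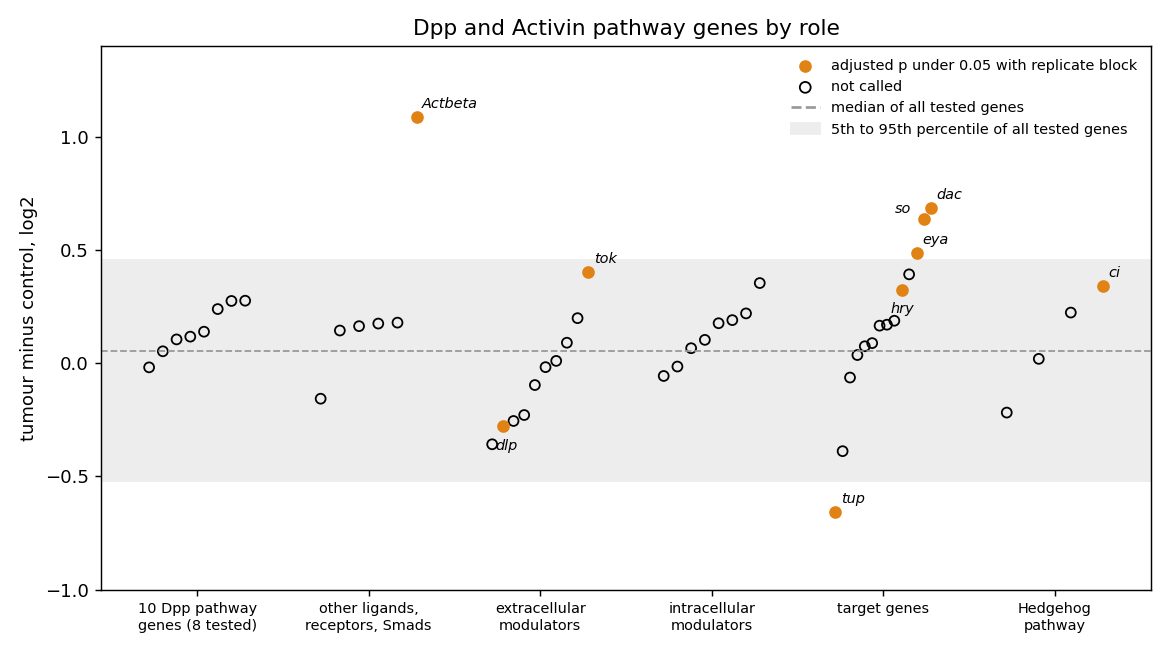
Tumour minus control (vertical axis, log2) for each tested gene, grouped by role, beside the median (0.052, dashed) and the 5th to 95th percentile (-0.52 to 0.45, grey band) of all tested genes. Orange points passed an adjusted p of 0.05 with the replicate block. The 8 Dpp pathway genes lie inside the band and hold no call, and Actbeta, dac, so, eya and tup lie outside it.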

How the data were processed

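The deposited values are log2 intensities, 1 per probe set and array, made by the authors with GCRMA, per the submitters' processing notes, from Affymetrix Drosophila Genome 2.0 arrays hybridised with 15 ug of cRNA, per the labels' protocols. The log2 scale was read from the values (2.17 to 15.79). They were not normalized again. Genes came from the platform annotation, with current names from NCBI's Release 6 table. Fits used limma 3.58.1 in R 4.3.3 (eBayes with trend, two-sided). They were run on simulated data with changes larger than any member difference and replicate effects shared by same-number arrays. Changes as small as those of the members were not simulated. A gene was represented by its brightest tested probe set. Same-number arrays deviated together from their genotype means (correlations 0.79, 0.47 and 0.72, all over 0.1), and the paired fit was given for that reason. Correlations between arrays of different numbers were not computed. Both replicate 1 arrays lay apart, so these values do not show that replicates 2 and 3 match by number. The labels do not say what a number marks. Replicates are pools of discs; precision is limited by the 6 arrays. Members and lists were chosen with earlier results of these data known. Named genes are the members, and in each list the 2 with the smallest unpaired p and any called. The 3 nearest profiles to dpp and Dad are named too. Added for their roles after their values were seen were babo, Smox, magu, bi, salm, salr, pnr, Doc1, Doc2, Doc3, ptc, smo and ato. Glia, fat body, salivary gland and tracheal markers were listed too. Glia summed to 2133 to 2773 in tumour and 1963 to 2772 in control, fat body to 22.2 to 22.6 and 22.2 to 184.1, salivary gland to 20.4 to 22.4 and 28.9 to 189, and trachea to 129 to 153 and 174 to 345.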

Additional observations from a re-analysis of the deposited data

How the results depend on the processing

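The count of called members was 0 under every alternative. These were the replicate block, replicates 2 and 3 alone, each array left out, median centring and quantile normalization. The rest were no filter, a filter at log2 of 6, no variance trend, and averaged probe sets. Dropping the tumour 2, the control 2 or the control 3 array left 0 of 7962 probe sets called, so no member could be called. The remaining single-array fits called 3 to 19, and the fit with no filter 2 of 18769. In those fits too, a count of 0 members says little about the members. The adjusted p of sax ran from 0.056 to 1 over the 14 alternatives. Called probe sets among all tested, 41 in the unpaired fit, numbered 730 with the replicate block, 550 with replicates 2 and 3 alone, 176 after centring, 213 after quantile normalization and 2 without a filter, and 0 to 19 with single arrays left out. Of the other pathway genes, 0 in the unpaired fit, 9 were called with the replicate block, 7 with replicates 2 and 3 alone, 2 (so and dac) after centring and 3 (Actbeta, eya and dac) after quantile normalization. The members' median of 0.13 was 0.077 with replicates 2 and 3 alone and 0.077 to 0.19 with single arrays left out. In those fits gbb ran from -0.15 to 0.32, tkv from -0.053 to 0.27 and put from -0.066 to 0.0097, so these 3 directions turn, while dpp, sax, Mad, Dad and shn stayed above 0. Mad was at 0.0042 without tumour replicate 1 and Dad at 0.0039 without control replicate 1. The receptor balance ran from -0.22 to -0.052. The comparison of Dad with brk was not run. Intervals of about 0.65 log2 (median width, unpaired) limit what could be seen.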
